A study of Mus musculus with 2 samples.

Results

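Galectins, S100 proteins and vimentin are small soluble or cytoskeletal proteins that macrophages and microglia make in larger amounts in many activated states. The genes described here are 9 of the 31053 features measured: the galectins Lgals1, Lgals3 and Lgals9, the S100 genes S100a4, S100a6, S100a10 and S100a11, the ion transport regulator Fxyd5 and the intermediate filament gene Vim. They were picked by symbol, with the contrast between the 2 libraries already known, so every value of that contrast is given as a description and carries no test. Levels were read in 3 groups of cells: 3304 WT cells, 5007 IRF8KO cells with under 2% of their UMIs in 6 neutrophil genes (Camp, Ngp, S100a8, S100a9, Lcn2 and Ltf), and the other 98 IRF8KO cells.

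Both libraries came from 3-month-old female C57BL/6 mice with no treatment entered. Microglia are the macrophages that reside in the brain; here they were isolated without enzymes, sorted by flow cytometry and profiled cell by cell in droplets. Each genotype was 1 library from a pool of 3 mice, so no value has a replicate, and the spread between mice is unknown. IRF8KO is read as a knockout of Irf8, which encodes a transcription factor of the myeloid lineage; the labels name neither the allele nor the cells in which it is deleted. The title IRF8KO stands beside a genotype field that says WT, so IRF8KO cells means throughout the cells of the library labelled IRF8KO. A kit for full-length libraries is named too, although the counts look like droplet counts and were used as such.

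The cells held 18543061 UMIs in WT, 18980263 in IRF8KO cells under the cut and 842948 in those at or over it, where a UMI is a tag that counts 1 captured RNA molecule. Median depth was 3204.5 UMIs a cell in WT, 2933 in IRF8KO cells under the cut and 7057.5 in those at or over it. Irf8 itself stood at 794, 669 and 123 CPM in these groups, where CPM is a gene's UMIs per 1e6 UMIs of the group. A deletion can leave counted parts of a transcript in place, so this level does not check the label. The 11 microglial markers summed to 30159 CPM in WT cells and 15321 CPM in IRF8KO cells under the cut, with none at 0 in either group. The 11 border macrophage markers summed to 265 and 3376 CPM, with 6 and 1 of them at 0. The 10 monocyte markers summed to 21.4 and 259 CPM, with Ly6c2 and Ace among those at 0 in both groups and Plac8 at 0 in IRF8KO. The cells at or over the cut held a median of 44.0% of their UMIs in the 6 neutrophil genes, and 13 of 14 neutrophil markers were detected in them, while the microglial markers summed to 1956 CPM. No WT cell reached the cut, and 5 barcodes occurred in both libraries. The part of these shifts in the members' values was not tested.

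Galectins are lectins that bind sugar chains carrying galactose. Galectin-1 forms dimers, galectin-3 carries a tail that lets it assemble into larger lattices and marks damaged lysosomes, and galectin-9 joins a pair of sugar-binding domains and is induced by interferons. S100 proteins mostly bind calcium and then dock on partners, S100A10 and S100A11 on annexins. Vimentin builds the intermediate filaments of mesenchymal and myeloid cells, and FXYD5 (dysadherin) is a membrane glycoprotein that regulates ion transport. In microglia, Lgals3, Vim and several S100 genes are known from cells around plaques and lesions and from monocyte-derived macrophages that enter the brain.

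The 9 genes lie on 6 chromosomes in GRCm38 with GENCODE M21 gene models, and all are protein-coding. Lgals1 lies on chr15:78926725-78930465 (+), Lgals3 on chr14:47367751-47386160 (+) and Lgals9 on chr11:78962974-78984946 (-). The 4 S100 genes share chromosome 3, at chr3:90603771-90606045 for S100a4, chr3:90612882-90624181 for S100a6, chr3:93520488-93526287 for S100a11 and chr3:93555080-93564643 for S100a10, all on the plus strand. Fxyd5 lies on chr7:31032722-31042481 (-) and Vim on chr2:13573927-13582826 (+). The S100a4 model overlaps a further protein-coding model on the same strand, Gm42674, so reads could be split between these models.

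IRF8 binds DNA beside PU.1 at composite elements and beside other IRF proteins at interferon-stimulated response elements, so the start of each gene was searched for these letters. Promoters of 7 of the 9 genes were matched in RefSeq (GRCm38.p6), and the 250 bases before the RefSeq start were searched on both strands. Lgals1 and S100a10 had no matched promoter and were not searched. The searched window reaches into the gene model given above by 22 bases for Lgals9, 8 for S100a11, 12 for S100a6 and 150 for Fxyd5. For Vim and Lgals3 it lies wholly inside the model, ending 384 and 6109 bases into it. Distances below count from the RefSeq start and not from the end of a printed stretch. The ETS-IRF composite (GGAA, any 2 bases, GAAA) and the response element core (GAAA, any 2 bases, GAAA), which occur in 2.3% and 2.98% of 32851 promoters, were both found in Lgals9, 153 and 55 bases before its start, and in no other of the 7. The reverse order, GAAA, any 2 bases, GGAA (2.3% of promoters), and the cyclic AMP element TGACGTCA (1.55%) were found in none of them. The AP-1 site TGANTCA (6.75% of promoters) occurred at 2 positions in S100a11, 136 and 38 bases before its start. The GC box GGGCGG (32.7%) occurred in S100a11 and Lgals3, and the PU.1 core GAGGAA (23.3%) in Lgals9, S100a11, Fxyd5 and Vim. The PU.1 core can overlap the ETS-IRF composite, and in Lgals9 the matches do not overlap. A match describes letters and not a bound site. The 4 stretches printed here are those that lie outside the gene model, on the gene's strand, with matches in capitals. Lgals9 is chr11:78984947-78985174 (-) and carries the IRF-type letters; S100a11 is chr3:93520246-93520487 (+) and carries the AP-1 letters. S100a4 at chr3:90603520-90603769 (+) and S100a6 at chr3:90612644-90612881 (+) are members with few UMIs in either main group and hold no match to any of the 7 motifs.
Lgals9: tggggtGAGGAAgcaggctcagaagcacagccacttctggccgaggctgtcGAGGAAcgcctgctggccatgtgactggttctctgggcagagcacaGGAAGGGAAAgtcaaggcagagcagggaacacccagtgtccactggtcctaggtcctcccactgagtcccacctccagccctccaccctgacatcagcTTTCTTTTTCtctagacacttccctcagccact
S100a11: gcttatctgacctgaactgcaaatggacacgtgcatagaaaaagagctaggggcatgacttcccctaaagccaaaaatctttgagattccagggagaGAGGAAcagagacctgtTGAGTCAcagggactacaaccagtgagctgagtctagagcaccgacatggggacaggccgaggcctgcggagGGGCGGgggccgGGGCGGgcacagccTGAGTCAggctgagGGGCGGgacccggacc
S100a4: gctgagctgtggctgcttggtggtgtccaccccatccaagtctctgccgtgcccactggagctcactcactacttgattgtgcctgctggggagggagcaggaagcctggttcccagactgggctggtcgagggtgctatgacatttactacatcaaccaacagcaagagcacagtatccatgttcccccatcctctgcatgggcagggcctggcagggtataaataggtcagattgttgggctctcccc
S100a6: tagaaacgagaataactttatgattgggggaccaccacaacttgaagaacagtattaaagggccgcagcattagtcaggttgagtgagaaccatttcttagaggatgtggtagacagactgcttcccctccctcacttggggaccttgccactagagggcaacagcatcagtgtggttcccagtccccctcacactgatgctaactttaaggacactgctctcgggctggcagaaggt

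Between IRF8KO cells under the cut and WT cells, 7 of the 9 genes were higher and 2 lower, and 5 were at least 2-fold higher (Lgals1, S100a6, S100a11, Fxyd5 and Vim) while S100a10 was at least 2-fold lower. Of 8859 genes with at least 10 CPM in either group, 5.61% were at least 2-fold higher and 9.28% at least 2-fold lower. Only 6 of the 9 genes reached that level, Lgals3, S100a4 and S100a6 being the exceptions, and the genes were chosen on this contrast, so nothing is read from the count. The median log2 ratio was 1.77 over the 9 genes and -0.28 over all genes tested. Intervals given with CPM values and ratios are 95% exact intervals for counting error only, since each group is 1 library.

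**Figure D1:**
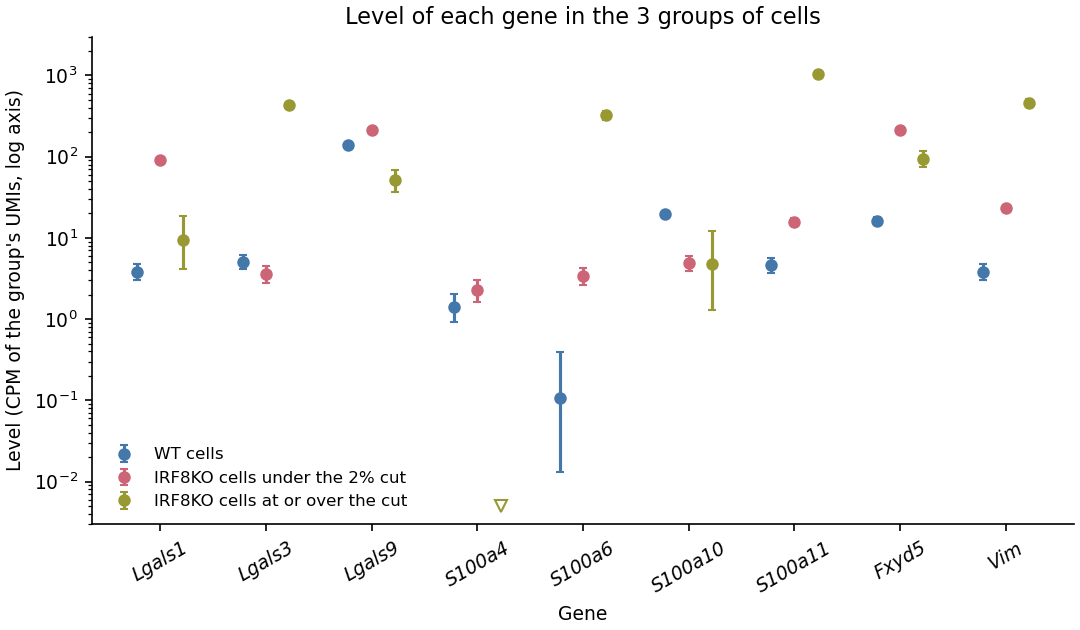
Level of each of the 9 genes (CPM of the group's summed UMIs, log axis) in WT cells, IRF8KO cells under the 2% cut and IRF8KO cells at or over it; points are levels, bars 95% exact Poisson intervals, and the open triangle marks S100a4, listed at 0 UMIs in the cells at or over the cut and drawn at the bottom of the axis. Lgals1, Fxyd5 and Lgals9 were highest in IRF8KO cells under the cut, and Lgals3, S100a6, S100a11 and Vim in those at or over it.

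Lgals1 encodes galectin-1 and was counted 71 times in WT and 1747 times in IRF8KO cells under the cut. Its level was 3.83 CPM in WT and 92.0 CPM in IRF8KO, a log2 ratio of 4.59 (4.24 to 4.95), or 24.0-fold. In the cells at or over the cut the level was 9.49 CPM, from 8 UMIs. Lgals1 was thus highest in IRF8KO cells under the cut, 9.70-fold above the neutrophil-gene-rich cells of the same library.

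Lgals9, the 2-domain galectin, was the galectin with most UMIs in both main groups. It had 2587 UMIs and 139.5 CPM in WT, 4046 UMIs and 213 CPM in IRF8KO under the cut, and 43 UMIs and 51.0 CPM at or over it. The log2 ratio of IRF8KO under the cut to WT was 0.61 (0.54 to 0.68), or 1.53-fold, with no overlap of the counting intervals. Its ratio lies below the 2-fold mark that other members passed.

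Lgals3, which encodes galectin-3, had another order. It had 94 UMIs in WT (5.07 CPM) and 68 in IRF8KO under the cut (3.58 CPM), a log2 ratio of -0.50 (-0.97 to -0.04). In the cells at or over the cut it had 363 UMIs, a level of 431 CPM, which was 120-fold above the rest of that library (log2 ratio 6.91). The small difference between the low groups rested on few cells: 1 IRF8KO cell with 4779 UMIs held 29 of the 68 Lgals3 UMIs. Without the cell with most UMIs of the gene in each library the log2 ratio was -1.07, and with a filter of 2000 UMIs, 1000 genes and 5% mitochondrial UMIs it was 0.05.

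Among the S100 genes, S100a10 was the one lower in IRF8KO cells. It encodes the partner of annexin A2 at the cell membrane and had 363 UMIs in WT (19.6 CPM) against 93 in IRF8KO cells under the cut (4.90 CPM), a log2 ratio of -1.998 (-2.34 to -1.67), or 3.995-fold lower. The cells at or over the cut held 4 UMIs (4.75 CPM), a level that did not differ from that of the cells under it beyond counting error (log2 ratio -0.05, interval -1.95 to 1.36). S100a10 was therefore higher in WT cells than in either IRF8KO group.

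S100a11, a partner of annexin A1 and annexin A2, is the S100 gene nearest to S100a10 and took the other direction. It had 86 UMIs in WT (4.64 CPM), 300 in IRF8KO under the cut (15.8 CPM) and 884 at or over it (1049 CPM). The log2 ratio of IRF8KO under the cut to WT was 1.77 (1.42 to 2.13), or 3.41-fold. The cells at or over the cut stood 66.3-fold above the cells under it.

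S100a6, or calcyclin, had 2 UMIs among all WT cells, 64 in IRF8KO cells under the cut and 273 at or over it. The levels were 0.108, 3.37 and 324 CPM. The log2 ratio of IRF8KO under the cut to WT was 4.97, with an interval of 3.05 to 8.04 that reflects the 2 WT molecules. S100a6 was close to absent from WT cells at this depth.

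S100a4, or metastasin, which binds non-muscle myosin, had 26 UMIs in WT (1.40 CPM) and 43 in IRF8KO under the cut (2.27 CPM). The log2 ratio of 0.69 had an interval of -0.04 to 1.45, which includes 0. In IRF8KO cells under the cut, 10 cells held 40 of the 43 UMIs, while the 26 WT UMIs lay in 26 cells. The interval takes UMIs as independent, so it is too narrow for such clumped counts. Before thinning, 0.787% of WT cells and 0.260% of IRF8KO cells under the cut had an S100a4 UMI. The cells at or over the cut held 0 S100a4 UMIs; a limit of 3 counts comes to 3.56 CPM, the exact upper bound is 4.38 CPM, and both lie above the levels of the other groups.

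Fxyd5, the transport regulator, was counted 302 times in WT and 3992 times in IRF8KO cells under the cut. Levels were 16.3 and 210.3 CPM, a log2 ratio of 3.69 (3.52 to 3.86), or 12.9-fold, and 93.7 CPM at or over the cut. Vim, which encodes vimentin, had 71, 441 and 388 UMIs in these groups, at 3.83, 23.2 and 460 CPM. Its log2 ratio of IRF8KO under the cut to WT was 2.60 (2.24 to 2.98), or 6.07-fold, and the cells at or over the cut were 19.8-fold above those under it.

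The cells at or over the cut had 4 of the 9 genes at least 2-fold above the cells under it (Lgals3, S100a6, S100a11 and Vim) and 3 at least 2-fold below (Lgals1, Lgals9 and Fxyd5). Over the 8798 genes tested in this comparison, 11.4% were at least 2-fold higher and 44.9% at least 2-fold lower, with a median log2 ratio of -0.85. The 6 genes that fixed the cut hold 39.0% of the UMIs of these cells, which by arithmetic lowers the CPM of other genes. The Fxyd5 log2 ratio was -1.17 (-1.51 to -0.85), an interval that spans the 2-fold mark. TMM, an alternative scaling, multiplies the totals by 1.09 under the cut and 0.703 at or over it, which makes this ratio less negative. Calls of lower levels near the mark, such as that of Fxyd5, thus depend on the scaling. Set against WT instead, 6 members were at least 2-fold higher and 2 at least 2-fold lower in the cells at or over the cut, beside 11.1% and 53.1% of 9169 genes. The comparisons share cells. Around the cut, the IRF8KO cell nearest above it had 2.36% neutrophil-gene UMIs and the nearest below it 0.232%. The nearest above, which had 47753 UMIs, had 9 Lgals9, 7 S100a11, 6 Fxyd5, 3 S100a6, 2 Lgals1, 1 Lgals3 and 1 Vim UMIs and none of S100a4 or S100a10, and Apoe, a macrophage gene, at 64331 CPM. The 5 cells with between 0.1% and 1% held 1 Lgals9 and 1 S100a11 UMI among 10310 UMIs and no other member.

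The levels in cells under the cut could include RNA released by neutrophils. The 6 neutrophil genes had 925 UMIs there, 0.00487% of the total. If each of these UMIs brought members in the ratio seen in the cells at or over the cut, the share of the observed UMIs would be 1.504% for Lgals3, 1.201% for S100a6, 0.830% for S100a11 and less for the other members.

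At equal depth the cells could be compared one by one. Each cell was thinned to 2000 UMIs, which kept 3019 WT cells, 4509 IRF8KO cells under the cut and 97 at or over it, and left out 285, 498 and 1 shallower cells. Fxyd5 was then detected in 3.18% of WT cells, 28.4% of IRF8KO cells under the cut and 14.4% of the others. Lgals1 was detected in 0.596%, 13.3% and 1.03%, and Lgals9 in 22.2%, 33.9% and 7.22%. These were the only 3 members found in over 5% of thinned IRF8KO cells under the cut. Of the rest, Vim was found in 0.762%, 3.53% and 61.9%, S100a11 in 0.861%, 2.86% and 83.5%, and S100a10 in 3.68%, 0.843% and 2.06%. Lgals3 was found in 0.563%, 0.266% and 59.8%, and S100a6 in 0.0331%, 0.288% and 36.1%. S100a4 was found in 0.1987% and 0.1996% of the main groups, and in 0 of 97 of the others, where a limit of 3 cells comes to 3.09% of cells with an S100a4 UMI at this depth. Before thinning, Lgals1 had a UMI in 1.57% of WT cells and 20.95% of IRF8KO cells under the cut.

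The 9 genes together made up 0.0194% of all UMIs in WT, 0.0569% in IRF8KO cells under the cut and 0.242% at or over it. Per thinned cell, the median was 0, 0.05 and 0.25%, and the highest cell had 0.65, 2.1 and 0.85%. The interquartile range over IRF8KO cells under the cut was 0.1 percentage points, from 0 to 0.1%. No member was detected in 70.7% of thinned WT cells, in 41.1% of IRF8KO cells under the cut and in 2.06% of the others. Of these IRF8KO cells, 7 carried 5 members and none carried 6. Of the IRF8KO cells under the cut, 12.7% (11.7 to 13.7) had more member UMIs than the WT 95th percentile, which is 2 UMIs, against 1.19% of WT cells and 80.4% of the cells at or over the cut. At this depth the member counts of the main groups overlapped in most cells. Mean shares were 0.0183% in WT and 0.0553% in IRF8KO cells under the cut, which leaves few member UMIs in a thinned cell. Counts this sparse overlap through counting error too, so they do not show how far the cells themselves overlap. Without thinning, 30.5% of IRF8KO cells under the cut were above the WT 95th percentile.

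**Figure D2:**
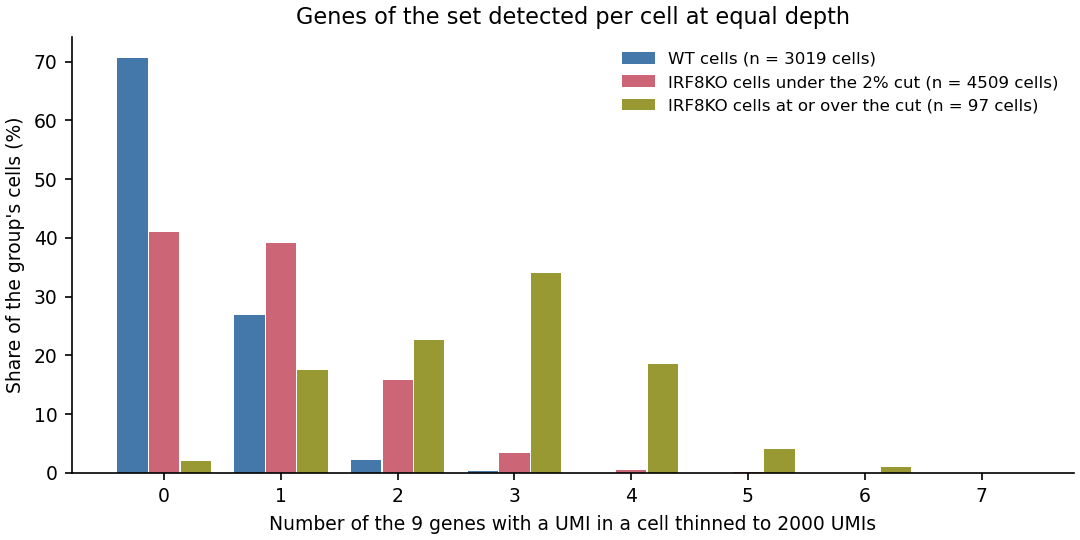
Share of thinned cells (percent, 2000 UMIs a cell) by the number of the 9 genes detected, in WT cells, IRF8KO cells under the 2% cut and IRF8KO cells at or over it. WT cells mostly had 0 members (70.7%), IRF8KO cells under the cut 0 or 1 (41.1% and 39.1%), and those at or over it most often 3 (34.0%).

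Cell-to-cell spread at equal depth was given as the variance over the mean of thinned UMIs, which is 1 for counting noise alone. It was 1.62 for Lgals1 and 1.49 for Fxyd5 in IRF8KO cells under the cut, at the 97.8th and 97.0th percentile of the 3175 genes with a mean of at least 0.1 UMI a cell, whose median was 1.06. Lgals9 had 1.05, at the 45.3rd percentile, so its UMIs were spread over cells like those of most genes. The other 6 members had a mean below 0.1, and their ratios ran from 1.05 for S100a11 to 8.64 for Lgals3. Much of the largest values came from 1 cell, which held 29 Lgals3 UMIs before thinning: without it the ratio was 1.31 for Lgals3, 1.16 for Vim (1.98 with it) and 1.43 for Lgals1, the last still above the 95th percentile of genes, 1.34. Across the 4509 cells, the Pearson correlation of log(1 + thinned UMIs) was 0.14 between Lgals1 and Fxyd5, 0.04 between Lgals1 and Lgals9 and 0.02 between Lgals9 and Fxyd5; these points share 1 library and sparse counts, and are descriptions only.

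The few cells rich in Lgals1 were rich in other members too. In the 3908 thinned IRF8KO cells with no Lgals1 UMI the other 8 members summed to a mean of 0.863 UMIs, in the 573 cells with 1 or 2 to 1.28, and in the 28 cells with 3 or more to 3.54 with an SD of 5.21. Without the cell with 29 Lgals3 UMIs, the last value was 2.59 with an SD of 1.53 over 27 cells. Over all 28 cells, mean Fxyd5 was 1.14 and mean Lgals9 0.857 UMIs, against 0.375 and 0.417 in cells with no Lgals1 UMI. S100a11 was at 0.179 against 0.0264, and S100a4 and S100a10 were at 0 in the 28 cells. Binned by Fxyd5, mean Lgals1 was 0.129 UMIs in 3227 cells with none, 0.269 in 1154 cells with 1 or 2 and 0.422 in 128 cells with 3 or more. The share of these genes also differed with depth. In 4 equal depth classes of IRF8KO cells, shallowest first, Lgals1 was at 53.6, 70.5, 85.6 and 114 CPM. Fxyd5 was at 125, 172, 254 and 228 CPM, so it did not rise throughout. In the shallowest and deepest classes, WT cells gave 2.91 and 3.72 CPM for Lgals1, and 17.5 and 14.5 CPM for Fxyd5.

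Among genes outside the list, the pattern most like S100a6 across thinned IRF8KO cells was that of Cd74, the invariant chain of MHC class II (Pearson r = 0.30 over 4509 cells). For Fxyd5 the most alike were Fth1, the ferritin heavy chain (r = 0.25), and Lyz2, lysozyme (r = 0.21). No gene reached r = 0.2 for any other member. With such sparse counts these are descriptions and no finding.

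IRF8KO cells under the cut were grouped by expression with the 9 genes left out of the clustering, which gave 7 clusters. None met the rule for a cell type name, so each is named by number and leading genes. Clusters 1 (2296 cells; Thbs1, Cd72, Lsp1, Fxyd5 and Runx3) and 2 (2214 cells; Crybb1, Per3, Tmem52, Pmp22 and Cck) held most cells. Cluster 3 had 335 cells (Cxcl9, Cxcl10, Iigp1, Mx1 and Ifit1bl1), cluster 4 had 70 (Egr3, Egr1, Ccl4, Lgals3 and Ccl3) and cluster 5 had 45 (H2-Eb1, Mgl2, Ccr2, H2-Aa and H2-Ab1). Cluster 6 had 36 cells (Sall1, Csmd3, Plekhh2, Myo18b and Hspb3) and cluster 7 had 11 (Hmmr, Aspm, Ube2c, Ccnb2 and Mki67).

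**Figure D3:**
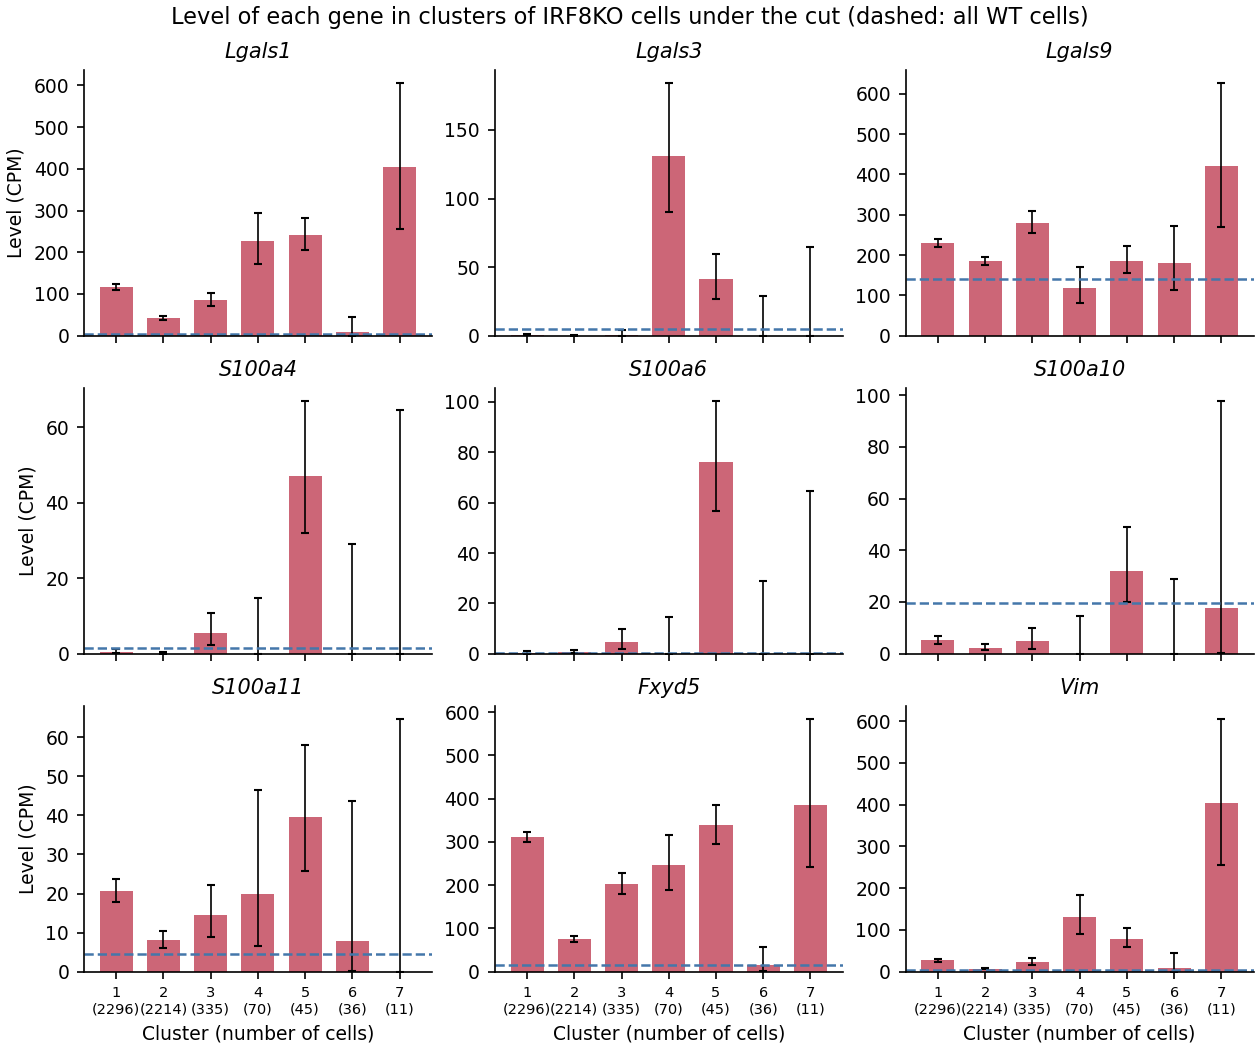
Level of each of the 9 genes (CPM of the cluster's summed UMIs, linear axis with its own scale for each gene) in 7 clusters of IRF8KO cells under the cut; bars are levels with 95% exact Poisson intervals, and the dashed line is the level in all WT cells. Lgals1 and Fxyd5 stood above the WT line in clusters 1 to 5 and 7, and S100a4 and S100a6 were highest in cluster 5.

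Fxyd5 and Lgals1 were not spread evenly over the 2 largest clusters. Fxyd5 was at 311 CPM in cluster 1 and 75.4 CPM in cluster 2, a 4.13-fold difference. Lgals1 was at 117 and 42.8 CPM (2.75-fold), Vim at 27.2 and 6.97 CPM (3.905-fold) and S100a11 at 20.6 and 8.06 CPM (2.56-fold). Lgals9 differed 1.24-fold, 229 against 185 CPM. Each of these levels was still above that of WT cells, where Fxyd5 was at 16.3 CPM, Lgals1 at 3.83 CPM and Lgals9 at 139.5 CPM. Cells of clusters 1 and 2 had median depths of 3244.5 and 2586 UMIs, and the part of depth in these differences was not tested.

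Cluster 6 had few UMIs of Lgals1 and Fxyd5. Its 36 cells held 1 Lgals1 UMI (7.85 CPM), 2 Fxyd5 UMIs (15.7 CPM) and 1 Vim UMI (7.85 CPM), with no UMI of Lgals3, S100a4, S100a6 or S100a10. Its interval for Lgals1, 0.199 to 43.8 CPM, includes the WT level of 3.83 CPM, and also the 42.8 CPM of cluster 2, and its upper end lies below the 92.0 CPM of all IRF8KO cells under the cut. Its interval for Fxyd5, 1.90 to 56.7 CPM, includes the WT level and lies below the 75.4 CPM of cluster 2, while Vim did not separate these clusters. The 11 microglial markers summed to 30026 CPM in cluster 6, beside 30159 CPM in WT, and Apoe stood at 7493 CPM, beside 478 CPM in WT and 89131 CPM in cluster 2. Lgals9 in cluster 6 was 181 CPM. As background to the shares of cells with a UMI, 2.78% of these cells had an Lgals1 UMI and 2.78% an Fxyd5 UMI, at a median depth of 3338 UMIs.

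S100a4 and S100a6 came from few cells. In IRF8KO cells under the cut the 43 S100a4 UMIs were in 13 cells and the 64 S100a6 UMIs in 27, and cluster 5 held 72.1% of the former and 78.1% of the latter although it had 45 cells. The level in cluster 5 was 47.2 CPM for S100a4, 76.2 CPM for S100a6 and 41.1 CPM for Lgals3. S100a10 was at 32.0 CPM and S100a11 at 39.6 CPM there. The S100a10 interval overlaps those of clusters 6 and 7, and the S100a11 interval those of clusters 4, 6 and 7. Those of S100a4 (32.1 to 67.1 CPM) and S100a6 (56.6 to 100.5 CPM) overlap that of cluster 7, 0 to 64.8 CPM for either gene. In cluster 5, 20% of cells had an S100a4 UMI and 37.8% an S100a6 UMI. The cells of cluster 5 had a median of 9427 UMIs, against 2933 for all IRF8KO cells under the cut. With the cells of highest doublet score left out of both libraries, the log2 ratio to WT was 0.73 for S100a4 and 5.005 for S100a6. How many cells of cluster 5 this left out was not counted, so the part of doublets in that cluster was not tested. In cluster 5 the 10 monocyte markers summed to 654 CPM, with Ly6c2, Plac8 and Ace among those at 0. The 11 border macrophage markers summed to 3852 CPM with Cd209f at 0, and the 9 dendritic cell markers to 768 CPM with 4 at 0. All IRF8KO cells under the cut had 259, 3376 and 974 CPM for these lists, so the dendritic sum was lower in cluster 5. Siglech, which is on the microglial list too, made up 962 of those 974 CPM. The part of these marker levels in the S100 levels was not tested.

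The contrast with WT differed without cluster 5, an alternative chosen after seeing the data. The log2 ratio of S100a4 went from 0.69 to -1.10, that of S100a6 from 4.97 to 2.82, and that of Lgals3 from -0.50 to -1.18. Lgals1 was at 4.50, Fxyd5 at 3.66 and Lgals9 at 0.62 without it. S100a4 thus changed the side of 0 on which it lay, while Lgals1, Fxyd5 and Lgals9 kept their values within counting error.

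In cluster 4, 1 cell weighed heavily. Its Lgals3 level of 131 CPM came from 33 UMIs, 29 of them in the cell named above, and its Vim and Lgals1 levels rested partly on the same cell, which held 29 Vim and 24 Lgals1 UMIs. Without that cell Lgals3 was at 16.2 CPM (4.42 to 41.5) and Vim at 16.2 CPM, while Lgals1 was still at 134 CPM and Fxyd5 at 239 CPM. Cluster 7, whose leading genes such as Mki67 and Aspm are known from dividing cells, had Vim at 404 CPM from 23 UMIs and Lgals1 at 404 CPM; S100a11, S100a4, S100a6 and Lgals3 had no UMI in it.

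Some cells held more than 1 of S100a4, S100a6 and Lgals3. At least 1 of these 3 was present in 45 IRF8KO cells under the cut, of which 23 were in cluster 5, and at least 2 in 15 cells, 12 of them in cluster 5 and 3 in cluster 3; the other 30 held 1 of them. The 15 cells were deeper, at a median of 7496 UMIs against 3968.5 in the 30 cells and 2927 in cells with none, and the part of depth was not tested. Of 13 cells with S100a4, 27 with S100a6 and 23 with Lgals3, S100a4 and S100a6 shared 10, S100a6 and Lgals3 shared 7, and S100a4 and Lgals3 shared 4. In WT, 1 cell had 2 of them. The 15 cells had Cd74 at 3869 CPM, Ccr2 at 662 CPM and Lyz2 at 7401 CPM, against 44.8, 5.87 and 568 CPM in the cells with none of the 3. They held 0 UMIs of Ly6c2, Plac8 and Camp and 1 of S100a8, and Apoe stood at 64424 CPM.

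On chromosome 3 the S100 genes lie in 2 groups, and the members are read here in order with their neighbours. From S100a1 to S100a9, S100a1 had a log2 ratio of IRF8KO under the cut to WT of 1.92 (1.70 to 2.14) and S100a13 of 0.12 (-0.01 to 0.24). S100a14, S100a16, S100a3, S100a2, S100a5 and S100a7a had at most 14 UMIs in either group. S100a8 and S100a9, which define neutrophils, were at 17.1 and 21.2 CPM in IRF8KO cells under the cut and 0.539 and 0.593 CPM in WT, and at 129027 and 156649 CPM in the cells at or over the cut, which the rule picks by these genes. Their 324 and 402 UMIs under the cut are among the 925 used above to scale released RNA, so that scaling gives no share for them. The part of released RNA in their levels was not tested. S100a11 and S100a10, neighbours among the S100 genes and on the same strand, ran in opposite directions, 1.77 and -1.998.

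**Figure D4:**
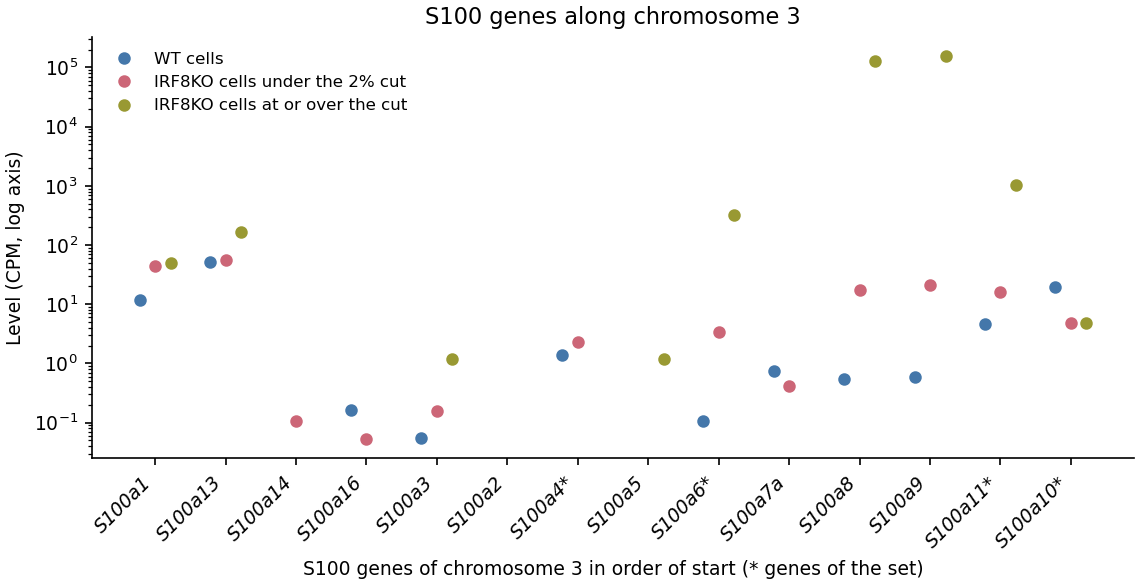
Level (CPM, log axis) of the S100 genes of chromosome 3 in order of their start, in WT cells, IRF8KO cells under the 2% cut and IRF8KO cells at or over it; points are group levels, an asterisk marks the 4 genes described here, and a gene with 0 UMIs in a group has no point. S100a8, S100a9 and S100a6 stood higher in IRF8KO cells under the cut than in WT, and S100a10 lower (4.90 against 19.6 CPM). The part of released neutrophil RNA in the S100a8 and S100a9 levels was not tested.

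The list of other S100 genes, which also holds S100pbp, the gene of an S100-binding protein, had 5 tested, 3 at least 2-fold higher and 0 lower, with S100a9 (5.16), S100a8 (4.98) and S100a1 (1.92) the largest log2 ratios; 2 of these 3 were used to place the cut. Galectin-8 (Lgals8) had a log2 ratio of -0.33 and Lgals3bp, which encodes a protein that binds galectin-3 and is no galectin itself, 0.45; neither passed 2-fold. Annexins, the partners of S100a10 and S100a11, had 6 tested, with 2 at least 2-fold higher and none lower. Anxa2, which binds S100A10, was at 1.83 CPM in WT, 28.5 in IRF8KO under the cut and 374 at or over it, a log2 ratio of 3.96, so it and its partner S100a10 ran in opposite directions. Anxa5 had a log2 ratio of 2.13 and Anxa4 of 0.80. Anxa1, which binds S100A11 and was named after its values were seen, was at 0 UMIs in WT and 87 in IRF8KO cells under the cut, at least 28.3-fold higher against a floor of 3 WT UMIs.

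Of intermediate filament and plakin genes 4 were tested; Plec, which encodes plectin, a cross-linker of vimentin filaments, was at 1.22, Dst at -0.74 and Macf1 at -0.49. Of 36 actin cytoskeleton genes, 2 were at least 2-fold higher and 3 at least 2-fold lower, with Tmsb10 (thymosin beta-10) at -4.66, Gsn (gelsolin) at 3.97 and Coro1a at -1.49. With TMM scaling the actin counts were 4 and 3. Of 9 genes in the list of tubulins, which also holds stathmin (Stmn1), 2 were at least 2-fold higher and 4 lower, Stmn1 among the latter, with Tubb2b at -3.01, Tubb2a at -1.92 and Tuba4a at 1.71. Of 14 reported partners and receptors of these proteins, 1 was at least 2-fold higher, Cd44 (4.63), and 1 lower, Itgam (-1.25), which was no longer 2-fold lower with TMM scaling. Havcr2, a reported receptor of galectin-9, was at -0.63. Of 26 listed activation companions, 19 were tested. Of these, 7 were at least 2-fold higher and none lower, led by Apoe (7.53), Ifitm2 (6.54) and Cst7 (4.05). Others were under 10 CPM in both groups and are named after their values were seen. Spp1 (-3.45) and Fabp5 (-2.11) were at least 2-fold lower. Ahnak2 (6.22), Plp2 (5.69 against a floor of 3 WT UMIs), Gpnmb (4.48) and Itgax (1.04) were at least 2-fold higher. Each list stands beside the 5.61% and 9.28% of all genes given above, and no list was tested.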

How the data were processed

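For each sample the authors deposited raw UMI counts as a gene-by-barcode matrix. Software version 3.1.0 and format 2 are named per the file headers; per the submitters' processing notes, Cell Ranger 3.1, bcl2fastq and Scanpy were used (no role stated) with build mm10. Annotation and cell calling: not given in the sources used here. Kept barcodes had at least 1000 UMIs, 500 genes and at most 10% mitochondrial UMIs. IRF8KO cells were split at 2% of UMIs in 6 neutrophil genes. Summed counts per group gave CPM, exact 95% intervals and log2 ratios; no test was run, since each group is 1 library. Counts at equal depth came from thinning to 2000 UMIs. The caller in scanpy 1.11.5 marked 0 WT and 3 IRF8KO doublets, too few to have worked, so all kept cells stayed. Clustering used 2000 variable genes without the 9, 30 components, 15 neighbours and Leiden 0.5. TMM factors (edgeR 4.0.16) served as an alternative scaling. Python 3.11.15, numpy 2.4.6, scipy 1.17.1 and R 4.3.3 were used, and interval code was tested on simulated data. Named besides the 9 genes were mainly the 3 largest ratios of each list among genes with at least 10 CPM, the 5 leading genes of each cluster, and genes with r of at least 0.2. Members and lists were chosen with earlier results of these data known. Results for a few listed genes are not reported here.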

Additional observations from a re-analysis of the deposited data

Results flagged for a closer look

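Among IRF8KO barcodes outside the comparisons, the 198 left out by the cell filter, the 9 genes took 0.0343% of 174864 UMIs, above the 0.0117% in the 200 left-out WT barcodes (19 of 163086 UMIs). Haemoglobin genes took 14.5% of UMIs in the left-out WT barcodes and 0% in the IRF8KO ones, and their part in this difference was not tested. Lgals9 and Fxyd5 were both at 143 CPM in the left-out IRF8KO barcodes.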

How the results depend on the processing

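No paired analysis was possible because each group has 1 library. The median log2 ratio of the 9 genes stayed between 1.58 and 2.02, and the number at least 2-fold higher between 5 and 6 (6 with a stricter cell filter, which brought S100a4 to 1.001). The share of IRF8KO cells above the WT 95th percentile, 12.7%, was 10.7% with thinning to 1000 UMIs, 30.5% without thinning and 16.2% without Lgals9 in the sum. The interquartile range of 0.1 was 0.0784 without thinning and 0.05 without Lgals9. The cause was not tested. Alternatives that left out clusters or single cells were chosen after seeing the data: without clusters 4 and 5 Lgals3 had a log2 ratio of -3.52, S100a4 of -1.08 and S100a6 of 2.84. Equal weight for each cell put Lgals3 at -1.13 and S100a4 at 0.04. Ratios ran from 4.37 to 4.87 for Lgals1, 3.43 to 3.94 for Fxyd5, 2.09 to 2.85 for Vim and 0.61 to 0.87 for Lgals9. The all-gene median shifted by 0.25 on the log2 scale under TMM, and leaving out mitochondrial and ribosomal protein genes shifted it by 0.15; no member changed direction with scaling. At Leiden resolution 1 there were 13 clusters; cluster 5 was the same size, and Lgals1 and Fxyd5 were at least 2-fold above WT in 10 of the 10 clusters of at least 50 cells. Depth limits the S100a4, S100a6 and Lgals3 values, which rest on under 100 UMIs in each main group and on few cells.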
